A study of Mus musculus with 12 samples.

Results

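Translation initiation factors are the proteins that bring the small ribosomal subunit, the initiator tRNA and an mRNA together at a start codon. They were taken here as the protein-coding genes of the deposited table whose symbols begin with Eif1 to Eif6, without the eIF2 kinases (Eif2ak). The rule found 69 genes among the 78298 of the table, 21748 of which are protein-coding. Their RNA was measured in the hippocampus of male C57BL/6 mice of 6 to 8 weeks, in 12 poly(A) RNA-seq libraries of 3 groups. In the Treatment group 4 libraries came from mice kept for 28 days under CUMS, a chronic regimen of mild and unpredictable stressors, and given the compound that the labels name Poria cocos acid A and the title poricoic acid A. It was given by gavage at 20 mg/kg once a day for 14 days from day 15 of the stress. In the Model group 4 libraries came from mice with the same 28 days of stress and saline in place of the compound. In the Control group 4 libraries came from unstressed mice given saline. Whether the libraries come from separate animals is not stated in the labels, and p-values speak only for the spread of these libraries, which may be technical.

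Initiation begins when eIF2, with GTP, delivers the initiator tRNA to the small subunit, which also carries eIF1, eIF1A, eIF5 and the large scaffold eIF3. The cap-binding protein eIF4E, the scaffold eIF4G and the helicase eIF4A with its cofactors eIF4B and eIF4H load this complex on the mRNA, and eIF5B helps the large subunit to join. Cells set the rate mainly at eIF2, through its phosphorylation and its exchange factor eIF2B, and at eIF4E, through the 4E-BP repressors that the kinase mTOR controls. Both controls act in neurons and are studied in synaptic plasticity and memory. They act on proteins, which RNA-seq does not measure.

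Library totals ran from 17083260 to 27479083 estimated counts, and the TMM scaling factors from 0.98 to 1.02. The hippocampal markers were present: 15 of 15 dentate granule cell genes, 12 of 13 listed CA1 symbols and 15 of 15 CA2 and CA3 genes had counts. The CA1 symbol not found was Nov, an older name of Ccn3, which was found. The library names of Treatment 2 and Treatment 3 (1631 and 1636) lie apart from the other 10 (1868 to 1898), although the labels put all libraries in batch 1, and the calls on factors and related genes that rest on Treatment libraries are also given without both where they are lost. The Model libraries enter 2 of the 3 comparisons, so opposite directions in them are not independent of each other.

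Of the 69 genes 49 had enough counts to be tested, and the other 20 were at or near 0. Of those 20, 16 are the numbered Eif1ad copies on chromosome 12, which had 0 counts in all 12 libraries except for 1 count of Eif1ad8. The remaining 4 were Eif4a3l1 with 3 counts, Eif4a3l2 with 7, the oocyte cap-binding protein gene Eif4e1b with 2 and the repressor gene Eif4ebp3 with 46 counts over all libraries. No comparison was made for these genes.

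The level of the 49 tested factors, as deposited FPKM averaged over 12 libraries, spanned from 417 for Eif4a2, a helicase, to 0.783 for Eif3j2, a copy of the eIF3 subunit gene Eif3j1. The helicase Eif4a2 ranged from 365 to 458 FPKM and stood above all others in every library. Below it came Eif5a at 219, which makes the hypusine-bearing factor eIF5A, the helicase Eif4a1 at 213, Eif1 at 171 (start codon fidelity) and Eif4g2 at 165 FPKM. Eif4g2 makes a scaffold without the site for eIF4E. Eif4h followed with 140, and then came the eIF3 subunits Eif3h with 99.3 and Eif3k with 91.5 FPKM. At the low end were Eif4e3, a cap-binding relative of eIF4E, at 7.33 and the repressor Eif4ebp1 at 1.56 FPKM. Of the 48 neighbouring pairs in this order, the 12-library ranges overlapped in 44. The 4 gaps were Eif4a2 above Eif5a, Eif4h above Eif3h, Eif3j1 above Eif1ad, and Eif4e3 above Eif4ebp1.

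**Figure D1:**
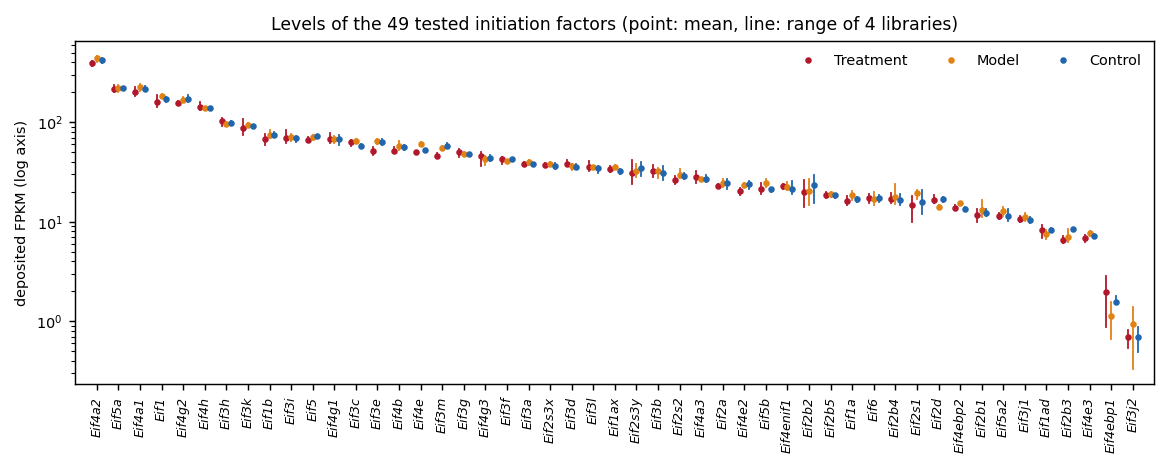
Deposited FPKM (log axis) of the 49 tested initiation factors, in order of their mean over 12 libraries; points are group means and lines the range of 4 libraries for Treatment, Model and Control. The order runs from Eif4a2 at 417 FPKM to Eif3j2 at 0.783, and the groups lie close together beside the spread between genes.

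Paralogues that do similar work were present in unequal amounts. The ratio of Eif4a2 to Eif4a1 in FPKM was 1.96 on average (1.80 to 2.18 over 12 libraries), with log2 ratios of 0.96 ± 0.11 in Treatment, 0.98 ± 0.10 in Model and 0.97 ± 0.09 in Control (SD, n = 4 each). Eif4g2 was 2.45 times as high as Eif4g1, the canonical scaffold, and Eif4g3 0.644 times as high. Among cap-binding proteins, Eif4e2 stood at 0.414 and Eif4e3 at 0.134 of the level of Eif4e. Of the tested 4E-BP genes Eif4ebp2 was the higher: the ratio of Eif4ebp1 to it was 0.112. Eif5a2 reached 0.0543 of Eif5a, and Eif1b 0.421 of Eif1. The X-linked Eif1ax was 1.96 times as high as Eif1a. The Y-linked eIF2 gamma gene Eif2s3y was 0.868 times as high as its X-linked partner Eif2s3x, with a range of 0.642 to 1.16. Reads can be shared between copies of a gene. The deposited counts of Eif1 and Eif2s3x were not whole (tolerance 0.01) in 12 of 12 libraries, those of Eif4a1 in 11 and those of Eif4a2 in 9. The counts of their partners Eif1b and Eif2s3y were not whole in 0 libraries. Where the fractions come from was not tested.

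The factors varied little between libraries. The coefficient of variation of CPM (counts scaled to the TMM-adjusted library total) over 12 libraries had a median of 7.42% for the 49 factors and 12.5% for all 18600 genes tested. It was lowest for Eif2s3x (4.32%) and highest for Eif3j2 (37.8%), which had at most 2.98 CPM. The next highest was Eif4ebp1 (24.3%), also a sparse gene. The factors and all genes were not matched for level, and the part of level in the lower median was not tested.

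The first comparison asked what the compound changed in stressed mice. In Treatment against Model 3 factors fell: the eIF3 subunit genes Eif3e and Eif3m and the helicase gene Eif4a1, with log2 fold changes of -0.35, -0.28 and -0.24. None rose. The 3 called factors are 6.12% of the 49 tested, beside 1.88% of all genes called in this comparison (0.704% called lower, 1.18% called higher). A factor was called at a Benjamini-Hochberg adjusted p under 0.05 in edgeR's quasi-likelihood test, adjusted over all 18600 genes.

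Eif3e makes a subunit of the eIF3 core that, with the other PCI-domain subunits, holds the complex together. Its level was 60.7, 55.1, 65.4 and 66.2 CPM in the 4 Treatment libraries, 75.5, 78.4, 79.9 and 81.6 CPM in Model and 79.4, 72.1, 81.4 and 78.2 CPM in Control. All Treatment libraries lay below all others, and Treatment 2 was the lowest. The group means were 61.8 ± 5.13 CPM in Treatment and 78.8 ± 2.57 CPM in Model (SD, n = 4 each). The log2 fold change was -0.35 ± 0.06 (SE), with an adjusted p of 0.0199 in edgeR. In bulk tissue fewer cells of a type and less RNA per cell cannot be told apart. The call was lost without Model 2 (-0.36, adjusted p = 0.0780), without Model 3 (-0.34, adjusted p = 0.0778), without Treatment 2 (-0.30, adjusted p = 0.0546) and without Treatment 2 and 3 together (-0.31, adjusted p = 0.0632). The gene (ENSMUSG00000022336) lies at chr15:43113454-43146115 in the coordinates of the deposited table (GRCm39) and overlaps no other gene of it.

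Eif3m makes another PCI-domain subunit of eIF3. It had 44.0, 43.2, 47.5 and 48.1 CPM in Treatment, 54.2, 55.5, 58.6 and 54.3 CPM in Model and 58.0, 57.3, 62.7 and 55.4 CPM in Control. Treatment again did not overlap with either group. The means were 45.7 ± 2.46 CPM in Treatment and 55.7 ± 2.07 CPM in Model (SD, n = 4 each), a log2 fold change of -0.28 ± 0.06 (SE) with an adjusted p of 0.0297 in edgeR. The call was lost without Model 2 (adjusted p = 0.110), Model 3 (0.109) or Treatment 2 (0.0816), and without Treatment 2 and 3 together (0.104), at log2 fold changes of -0.29, -0.25, -0.26 and -0.27 in that order. The gene (ENSMUSG00000027170) lies at chr2:104830001-104847425 and overlaps Ccdc73, which had 2560 counts in all beside 13728 for Eif3m. The strand protocol of the libraries is not given in the sources used here, so reads of the overlap may belong to either gene.

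Eif4a1 makes the RNA helicase that unwinds the leader of an mRNA within the cap-binding complex. It had 245, 231, 263 and 245 CPM in Treatment, 277, 288, 298 and 298 CPM in Model and 279, 263, 287 and 278 CPM in Control. Treatment lay below Model without overlap, while Treatment 3 was just under the lowest Control library, both at 263 CPM when rounded. The means were 246 ± 12.9 CPM in Treatment and 290 ± 10.1 CPM in Model (SD, n = 4 each), a log2 fold change of -0.24 ± 0.05 (SE) with an adjusted p of 0.0359 in edgeR. The call was lost in 11 of 22 alternative fits, beside 6 for Eif3e and 7 for Eif3m. Among these were the fits without Model 2, 3 or 4 (adjusted p = 0.115, 0.126 and 0.0773), without Treatment 1, 2 or 4 (0.0529, 0.101 and 0.0853), without Control 4 (0.0547) and without Treatment 2 and 3 together (0.0835). In the deposited FPKM its log2 fold change was -0.14. The gene (ENSMUSG00000059796) lies at chr11:69557762-69563143, where 5 other genes overlap it with 297 counts in all beside 69763, and a pseudogene elsewhere, Eif4a-ps4, had 621 counts.

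The promoters of 40 of the 69 factors are in the RefSeq table used here (GRCm38.p6), among them those of Eif3m and Eif4a1 and of Eif2d, the factor called in the second comparison. They are shown because these genes moved in the data: 150 bases before the transcription start and 20 after it, 5′ to 3′ on the strand of the gene. Capitals mark matches on either strand to CGGAAG (a motif of ETS factors), to CCAAT (the box bound by NF-Y) and to GGGCGG (the GC box bound by Sp1). Eif3m stands at chr2:105017008-105017177 (minus strand), Eif4a1 at chr11:69672404-69672573 (minus strand) and Eif2d at chr1:131153057-131153226 (plus strand) of that build.
Eif3m: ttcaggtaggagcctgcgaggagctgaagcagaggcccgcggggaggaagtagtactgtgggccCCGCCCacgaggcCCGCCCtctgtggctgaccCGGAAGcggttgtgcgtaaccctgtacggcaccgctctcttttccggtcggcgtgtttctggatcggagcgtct
Eif4a1: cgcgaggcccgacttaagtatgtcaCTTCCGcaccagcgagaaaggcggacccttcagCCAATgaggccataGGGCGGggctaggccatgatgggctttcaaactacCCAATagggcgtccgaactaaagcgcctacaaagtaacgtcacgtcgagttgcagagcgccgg
Eif2d: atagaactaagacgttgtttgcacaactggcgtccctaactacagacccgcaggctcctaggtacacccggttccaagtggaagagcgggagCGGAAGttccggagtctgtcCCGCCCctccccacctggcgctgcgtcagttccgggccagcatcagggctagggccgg
Each of the 3 windows held CGGAAG or its reverse complement once. At 1 or more matches in any promoter of the gene, so did 50.0% of the 40 factors with a promoter. The share was 23.9% of the 12351 tested genes in the table and 13.9% of all 27025 genes in it. The GC box was found once in Eif4a1 and Eif2d and at 2 places in Eif3m. It was in 65.0% of the factors, 58.2% of tested genes and 33.0% of all genes with a promoter. CCAAT occurred at 2 places in Eif4a1 and in neither of the others. Of the factors 30.0% held it, beside 32.2% of tested genes and 29.5% of all genes with a promoter. The E-box CACGTG that MYC binds was in 20.0% of the factors, 7.87% of tested genes and 5.53% of all genes with a promoter. It was in none of the 3 windows. Nor did these windows hold TGATGNAA (bound by ATF4 with C/EBP; 2.50% of the factors, 1.60% of tested genes, 2.82% of all), TGACGTCA (bound by CREB; 0.00%, 2.93%, 1.78%) or TATAAA (the TATA box; 2.50%, 5.09%, 9.48%). No 2 of these motifs overlapped in the windows shown.

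**Figure D2:**
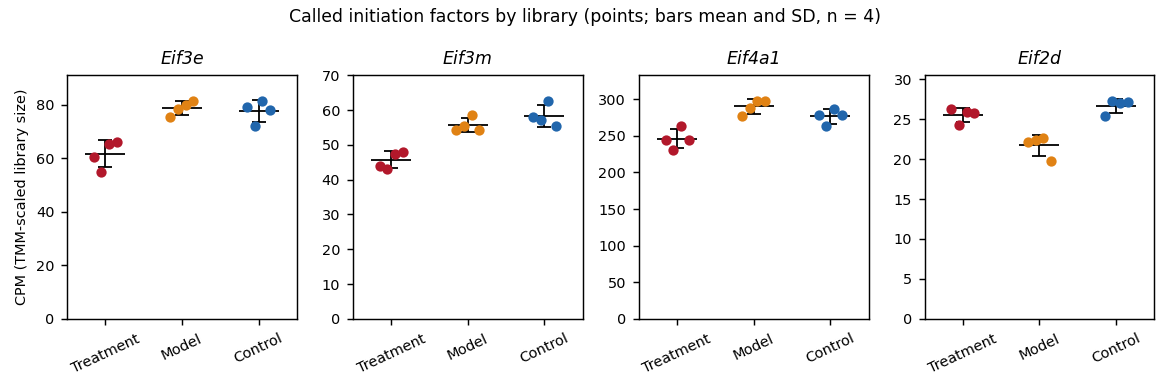
CPM of the 4 called factors in each library of Treatment, Model and Control (points), with the mean and SD of 4 libraries (bars); axes start at 0. Eif3e, Eif3m and Eif4a1 are lower in Treatment than in Model without overlap, and Eif2d is lower in Model than in the other groups, with 19.7 to 22.6 CPM.

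The plot of the 4 called factors shows how small the differences are beside the levels. Across the 12 libraries Eif3e and Eif4a1 had a Pearson correlation of log2 CPM of 0.95, Eif3e and Eif3m of 0.93, and Eif3m and Eif4a1 of 0.84. These points share libraries and the group differences, so the values are a description. The 5 genes most like Eif3e by this measure were Eif4a1, Tmsb4x (0.95), Npm1 (0.94), Tomm22 (0.94) and Lgi1 (0.94). For Eif3m they were Slc6a15, Lrrtm4, Eif3e and Odr4 (0.93 each) and Gm37676 (0.92). For Eif4a1 they were Glo1 (0.96), Cryzl1 (0.95), Eif3e (0.95), Sdcbp (0.94) and Kctd4 (0.94).

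Over all 49 tested factors, the 3 called included, negative values were the more frequent. In Treatment against Model 35 of 49 log2 fold changes were negative (71.4%), beside 49.6% of all genes tested (50.4% were positive), and their median was -0.08, beside 0.00 for all genes; without Treatment 2 and 3 together it was -0.06 over 50 factors. At an unadjusted p under 0.05 there were 15 factors (30.6%), beside 18.5% of all genes. Without Treatment 2 there were 10 factors, beside 2938 of 19035 genes. In 6 factors all 4 Treatment libraries lay below all 4 Model libraries (4.36% of all genes did so), and in 1, Eif2d, above them (5.14% of all genes).

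By role, the 14 eIF3 subunits included the 2 called genes, and the other 12 did not pass. Their log2 fold changes ran from -0.48 for the sparse Eif3j2 to 0.09, with a median of -0.06, and 10 of 14 were negative. Eif3a, the largest subunit, had 177 ± 12.8 CPM in Treatment and 192 ± 7.85 CPM in Model (SD, n = 4 each). The start-site selection factors eIF1 and eIF1A (4 genes) were all negative, with a median of -0.21, and none passed. Eif1 had 143, 141, 183 and 165 CPM in Treatment and 180, 186, 184 and 192 CPM in Model, a log2 fold change of -0.23 ± 0.08 (SE) with an adjusted p of 0.115 in edgeR. Treatment 1 and 2 were well below Model, and Treatment 3 fell within its range. Eif1a stood at 34.7 ± 2.61 CPM in Treatment and 40.6 ± 3.96 CPM in Model (-0.22 ± 0.08, adjusted p = 0.125).

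Among the eIF2 genes, Eif2s1, whose product carries the serine that the eIF2 kinases phosphorylate, averaged 33.6 ± 4.48 CPM in Treatment and 39.8 ± 3.10 CPM in Model (SD, n = 4 each), a log2 fold change of -0.24 ± 0.09 (SE) with an adjusted p of 0.145 in edgeR. In the deposited FPKM (pseudocount 0.1) the log2 fold change of Eif2s1 was -0.43. Eif2s2 averaged 59.7 ± 4.27 CPM in Treatment and 68.3 ± 5.53 CPM in Model, and Eif2s3x 126 ± 5.17 CPM in Treatment and 129 ± 3.80 CPM in Model. None of the 4 eIF2 genes and none of the 5 eIF2B genes passed. The catalytic subunit gene Eif2b5 was at 42.6 ± 2.91 CPM in Treatment and 43.9 ± 2.02 CPM in Model.

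In the eIF4A group the cofactor Eif4b, which stimulates the helicase, had 173, 174, 172 and 173 CPM in Treatment and 197, 190, 193 and 185 CPM in Model, without overlap. Its log2 fold change was -0.14 ± 0.05 (SE), and the adjusted p was 0.131 in edgeR. Eif4a2 averaged 600 ± 39.8 CPM in Treatment and 670 ± 33.4 CPM in Model, and Eif4h 305 ± 28.1 CPM in Treatment and 305 ± 9.20 CPM in Model. Eif4a3, the helicase of the exon junction complex, averaged 33.0 ± 4.52 CPM in Treatment and 32.1 ± 0.880 CPM in Model. None of Eif4b, Eif4a2, Eif4h and Eif4a3 passed.

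The cap-binding genes did not pass in counts. Eif4e averaged 106 ± 6.18 CPM in Treatment and 114 ± 7.63 CPM in Model. In deposited FPKM, which also divide by transcript length, Eif4e had 50.1, 50.2, 51.8 and 50.1 in Treatment and 60.6, 63.3, 58.7 and 58.8 in Model, and it was the 1 factor called when the FPKM were tested in limma. The counts of Eif4e overlap between the groups and the FPKM do not. The repressor Eif4ebp2 had 76.4, 79.7, 73.4 and 74.0 CPM in Treatment, 81.2, 85.0, 88.9 and 87.6 CPM in Model and 75.0, 77.5, 71.4 and 74.2 CPM in Control. Model stood above both other groups without overlap, but the log2 fold change of -0.18 ± 0.05 (SE) in Treatment against Model missed the threshold (adjusted p = 0.0956, edgeR). Eif4ebp1, at 2.00 ± 0.551 CPM in Treatment and 1.55 ± 0.324 CPM in Model, was too sparse for a narrow estimate.

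Among the scaffolds, Eif4g2 averaged 630 ± 15.1 CPM in Treatment and 701 ± 27.0 CPM in Model without overlap (log2 fold change -0.15 ± 0.05, adjusted p = 0.106, edgeR), while Eif4g1 had 267 ± 17.3 CPM in Treatment and 271 ± 8.31 CPM in Model. The late-acting factors showed no call either. Eif5, which triggers GTP hydrolysis on eIF2, averaged 205 ± 11.3 CPM in Treatment and 219 ± 13.5 CPM in Model. Eif5b averaged 98.9 ± 5.36 CPM in Treatment and 107 ± 2.13 CPM in Model, and Eif5a 192 ± 20.5 CPM in Treatment and 199 ± 8.45 CPM in Model. Eif6, which keeps the ribosomal subunits apart, averaged 20.7 ± 2.41 CPM in Treatment and 20.6 ± 3.03 CPM in Model.

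**Figure D3:**
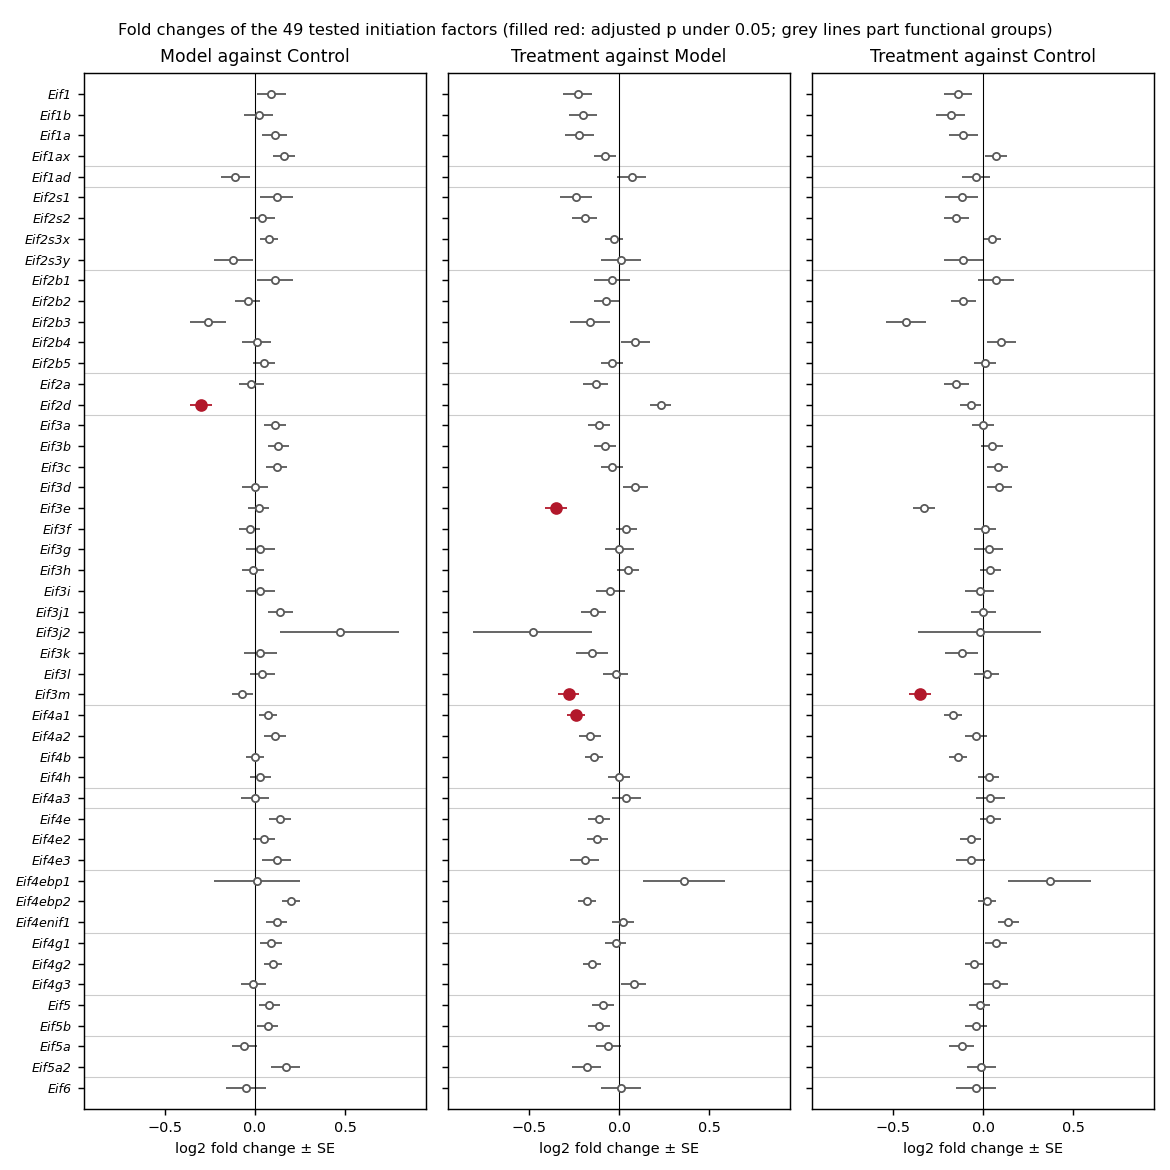
Log2 fold changes of the 49 tested factors with their SE (lines) in Model against Control, Treatment against Model and Treatment against Control, grouped by role (grey lines); filled red points have an adjusted p under 0.05. Red points are Eif2d in the first panel, Eif3e, Eif3m and Eif4a1 in the second and Eif3m in the third, and 35 of 49 points lie left of 0 in the second.

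The plot of fold changes sets the 3 comparisons side by side. The widest bars belong to Eif3j2 and Eif4ebp1, the sparsest genes.

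The second comparison asked what stress changed in mice given saline. In Model against Control 1 factor fell and none rose: Eif2d, which in human cells can place a tRNA on the small subunit without GTP and takes part in ribosome recycling. This is 2.04% of the 49 tested, beside 0.790% of all genes called (0.452% called lower, 0.339% called higher). Eif2d had 22.1, 22.4, 22.6 and 19.7 CPM in Model and 25.4, 27.3, 27.0 and 27.1 CPM in Control. The groups did not overlap, and Model 4 was the lowest library. The means were 21.7 ± 1.34 CPM in Model and 26.7 ± 0.850 CPM in Control (SD, n = 4 each), a log2 fold change of -0.30 ± 0.06 (SE) with an adjusted p of 0.0454 in edgeR. The call was lost without any 1 of the 4 Control libraries (adjusted p = 0.110, 0.144, 0.0912 and 0.0881 without Control 1 to 4), any 1 of the 4 Model libraries (0.0640, 0.120, 0.0940 and 0.133 without Model 1 to 4), Treatment 2 (0.0507) or Treatment 4 (0.0625). The log2 fold change stayed between -0.32 and -0.25 in these fits. The gene (ENSMUSG00000026427) lies at chr1:131080918-131086639 and overlaps no other gene of the table, and all its counts were whole.

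In the Treatment libraries Eif2d had 26.3, 24.2, 25.9 and 25.7 CPM, above every Model library. The log2 fold change in Treatment against Model was 0.23 ± 0.06 (SE), with an adjusted p of 0.0705 in edgeR. The same Model libraries enter both comparisons. The 5 genes most like Eif2d over the 12 libraries were Sugp1 (Pearson correlation 0.94), Brca2 (0.93), 1700021J08Rik (0.93), Spg7 (0.92) and Surf2 (0.92). Its correlation with Eif3e was -0.29, with Eif3m -0.06 and with Eif4a1 -0.45.

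Over the 49 tested factors, Eif2d included, positive values were the more frequent under stress. In Model against Control 36 of 49 log2 fold changes were positive (73.5%), beside 47.3% of all genes tested (52.7% were negative), and the median was 0.04, beside -0.01 for all genes. At an unadjusted p under 0.05 there were 7 factors (14.3%), beside 15.6% of all genes. The count was 2 without Model 4 (beside 2342 of 18909 genes), 4 without Control 2 (2275 of 18870) and 11 without Treatment 2 (3027 of 19035). In 5 factors all Model libraries lay above all Control libraries (5.95% of all genes) and in 2 below them (5.46% of all genes).

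Of the factors that did not pass, Eif4ebp2 came closest, with a log2 fold change of 0.20 ± 0.05 (SE) and an adjusted p of 0.0823 in edgeR on the library values given above. The X-linked Eif1ax had 167, 183, 167 and 182 CPM in Model and 163, 148, 156 and 160 CPM in Control, which do not overlap, with a log2 fold change of 0.16 ± 0.06 (SE) and an adjusted p of 0.229 in edgeR. Eif4e had 105, 122, 110 and 118 CPM in Model and 104, 102, 104 and 102 CPM in Control (0.14 ± 0.06, adjusted p = 0.257). The eIF3 core genes Eif3c (0.12 ± 0.06, adjusted p = 0.290) and Eif3b (0.13 ± 0.06, adjusted p = 0.301; 0.07 in the deposited FPKM) also stood higher in Model without overlap. They averaged 183 ± 7.26 CPM (Eif3c) and 78.4 ± 2.54 CPM (Eif3b) in Model, and 168 ± 4.84 CPM (Eif3c) and 71.6 ± 1.95 CPM (Eif3b) in Control. Eif2b3, the gamma subunit of eIF2B, was lower: 8.54, 9.86, 11.5 and 8.32 CPM in Model and 11.2, 11.6, 11.6 and 11.4 CPM in Control, where Model 3 reached the Control range (-0.26 ± 0.10, adjusted p = 0.230). Eif3e (0.02 ± 0.06, adjusted p = 0.919), Eif3m (-0.07 ± 0.06, adjusted p = 0.641) and Eif4a1 (0.07 ± 0.05, adjusted p = 0.589) did not pass.

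The third comparison set treated, stressed mice against unstressed mice. In Treatment against Control 1 factor fell and none rose: Eif3m, with a log2 fold change of -0.35 ± 0.06 (SE) and an adjusted p of 0.0416 in edgeR, on means of 45.7 ± 2.46 CPM in Treatment and 58.3 ± 3.10 CPM in Control (SD, n = 4 each). This is 2.04% of the 49 tested, beside 0.102% of all genes called (0.0376% called lower, 0.0645% called higher). The call was lost without Control 1, 2 or 3 (adjusted p = 0.114, 0.0794 and 0.186), without Model 1, 2 or 3 (0.0542, 0.0766 and 0.0592), without Treatment 1, 2 or 4 (0.0936, 0.0640 and 0.0556) and without Treatment 2 and 3 together (0.0522). Eif3e, whose Treatment libraries also lay below all Control libraries, missed the threshold at -0.33 ± 0.06 (SE, adjusted p = 0.0665). It passed without Treatment 3 (adjusted p = 0.0419). The median of the 49 log2 fold changes was -0.02, beside -0.01 for all genes, with 28 negative (57.1%, beside 52.1% of all genes) and 21 positive (42.9%, beside 47.9%). At an unadjusted p under 0.05 there were 7 factors (14.3%), beside 13.9% of all genes. The count was 13 without Treatment 3 (beside 2620 of 19138 genes) and 4 without Control 3 (1923 of 19056).

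Eif2b3 followed in this comparison, with 8.20, 8.11, 8.38 and 9.31 CPM in Treatment against the Control values above, which do not overlap (log2 fold change -0.43 ± 0.11, adjusted p = 0.109, edgeR). Eif4a1 (-0.17 ± 0.05, adjusted p = 0.171; -0.09 in the deposited FPKM) and Eif4b (-0.14 ± 0.05, adjusted p = 0.216) were lower in Treatment without overlap as well. Eif4enif1, whose product carries eIF4E into the nucleus and to P-bodies, had 56.1, 54.1, 54.0 and 61.2 CPM in Treatment and 50.2, 51.4, 48.8 and 53.8 CPM in Control (0.14 ± 0.06, adjusted p = 0.347; 0.09 in the deposited FPKM). In all, 5 factors lay lower without overlap and 1 higher, beside 3.24% and 3.99% of all genes.

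**Figure D4:**
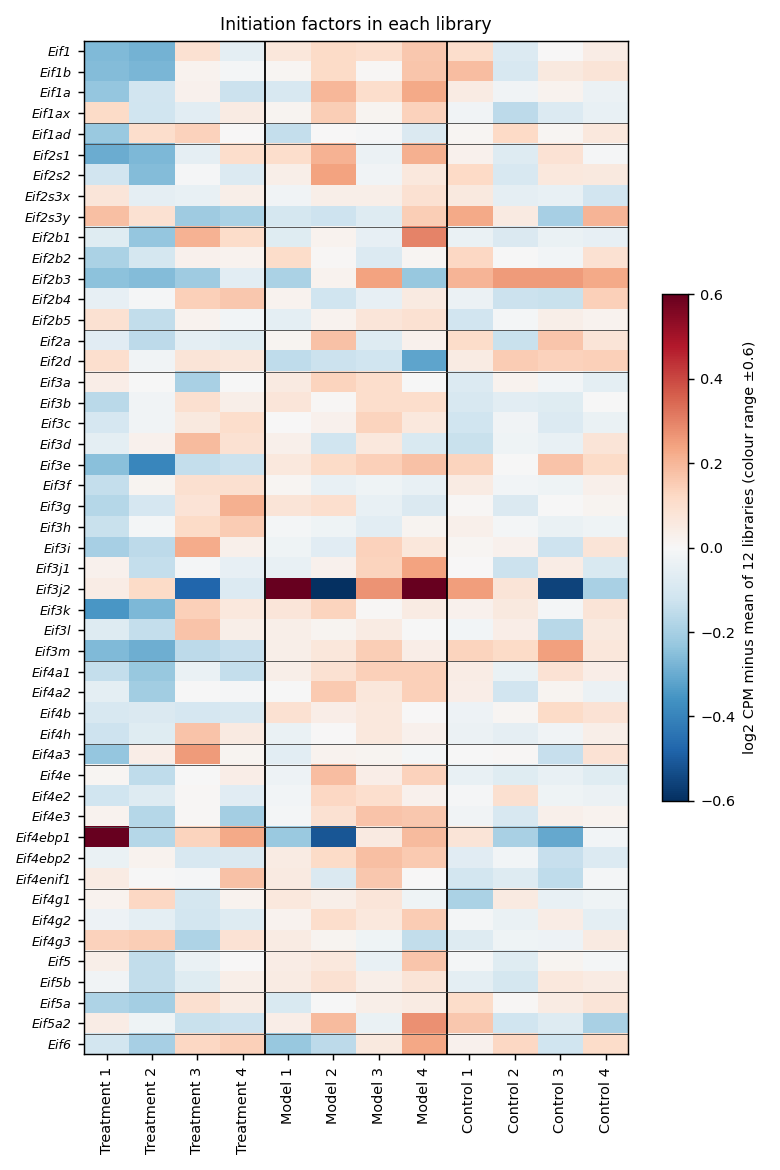
Log2 CPM of the 49 tested factors in each library of Treatment, Model and Control, as the difference from the mean of the 12 libraries (red above, blue below; values beyond ±0.6 take the end colour); dark lines part the roles. Treatment 1 and Treatment 2 are blue in most rows, with mean differences of -0.07 and -0.10, and Model 4 is red in most, with 0.08.

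The map of the libraries shows that the lean differed between Treatment libraries. Averaged over the 49 factors, the difference from the 12-library mean on the log2 scale was -0.07, -0.10, 0.00 and 0.01 in Treatment 1 to 4, 0.01, 0.02, 0.05 and 0.08 in Model 1 to 4, and 0.02, -0.02, -0.02 and 0.02 in Control 1 to 4. Treatment 1 and 2 carried the low values, while Treatment 3 and 4 lay within the range of the Control libraries. Eif3e and Eif3m, by contrast, were low in all 4 Treatment libraries.

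Markers of other cells and of regions inside and beside the hippocampus also differed between the groups. The 15 dentate granule cell genes summed to 807 to 893 CPM in Treatment, 1000 to 1200 CPM in Model and 894 to 1060 CPM in Control, and 5 of 15 (33.3%) were called lower in Treatment against Model, beside 0.704% of all genes. In Model against Control 1 of 15 (6.67%) was called higher, beside 0.339% of all genes. For neocortex 14 of 15 listed symbols were found, and the other, Ctgf, is an older name of Ccn2, which was found. These 14 genes summed to 599 to 891 CPM in Treatment, 464 to 611 CPM in Model and 455 to 567 CPM in Control. In Treatment against Model 4 of them (28.6%) were called higher, beside 1.18% of all genes. In Treatment against Control 1 neocortex gene (7.14%) was called higher, beside 0.0645% of all genes. There 13 of 14 were positive (92.9%, beside 47.9% of all genes), with a median of 0.47. The 14 endothelial genes summed to 307 to 354 CPM in Treatment, 258 to 276 CPM in Model and 250 to 290 CPM in Control. Of these 2 (14.3%) were called higher in Treatment against Model, beside 1.18% of all genes. In Model against Control 1 endothelial gene (7.14%) was called lower, beside 0.452% of all genes. The 22 choroid plexus genes summed to 1050 to 2680 CPM in Treatment, 1240 to 1730 CPM in Model and 1480 to 4350 CPM in Control, with 2 called lower in Model against Control (9.09%, beside 0.452% of all genes). All 22 were negative there, with a median of -1.17, and 22 had an unadjusted p under 0.05 in edgeR (100%, beside 15.6% of all genes). In Treatment against Control none was called, but all 22 were again negative, with a median of -1.03. An unadjusted p under 0.05 was found for 22 there as well (100%, beside 13.9% of all genes). In Treatment against Model none was called and 0 had an unadjusted p under 0.05, beside 18.5% of all genes. In Model against Control 13 of 13 neuronal genes were positive (median 0.09), as were 12 of 12 CA1 genes (median 0.24), and 12 of 13 microglial genes were negative (median -0.14). Of 18 oligodendrocyte genes 2 were called in Model against Control (11.1%, beside 0.790% of all genes). In Treatment against Model and in Treatment against Control 1 was called (5.56% in each, beside 1.88% and 0.102%). In Treatment against Model alone 2 of 15 CA2 and CA3 genes (13.3%), 1 of 12 CA1 genes (8.33%) and 1 of 13 astrocyte genes (7.69%) were called, beside 1.88% of all genes. Of the 2 CA2 and CA3 genes 1 was higher and 1 lower in Treatment. The CA1 gene was lower and the astrocyte gene higher. In the lists for microglia, neurons, and thalamus and habenula 0 genes were called in any comparison. No found marker was at 0 in all libraries. The part of these markers in the results for the initiation factors was not tested.

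Other genes of translation and its control were set beside the initiation factors. Of 32 genes of the integrated stress response, which follows eIF2 phosphorylation, none passed in Model against Control or in Treatment against Control. In Treatment against Model 1 rose (3.12%, beside 1.88% of all genes): Slc7a5, which makes an amino acid transporter, averaged 71.7 ± 4.15 CPM in Treatment and 57.8 ± 4.24 CPM in Model (SD, n = 4 each; log2 fold change 0.31 ± 0.07, adjusted p = 0.0370, edgeR). The medians of this list were 0.02, 0.02 and 0.07 in Model against Control, Treatment against Model and Treatment against Control. At an unadjusted p under 0.05 in edgeR there were 7, 6 and 9 of the 32 (21.9%, 18.8% and 28.1%). The shares of all genes were 15.6%, 18.5% and 13.9% in the same order. In Treatment against Control 23 of 32 were positive (71.9%, beside 47.9% of all genes). The call on Slc7a5 was lost without Control 1 or 4, Model 1, 2 or 3, or Treatment 2, 3 or 4 (adjusted p from 0.0531 to 0.150), and without Treatment 2 and 3 together (0.149).

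Of 34 cap-binding partners, poly(A)-binding proteins and genes of mTOR and MNK signalling, 1 fell in Model against Control (2.94%, beside 0.790% of all genes) and 2 rose in Treatment against Model (5.88%, beside 1.88%). Rps6kb2, which makes an S6 kinase downstream of mTOR, averaged 20.6 ± 1.79 CPM in Model and 27.4 ± 1.72 CPM in Control (-0.41 ± 0.07, adjusted p = 0.0212, edgeR). It averaged 27.0 ± 1.27 CPM in Treatment, a log2 fold change of 0.39 ± 0.08 against Model (adjusted p = 0.0229). Gigyf1, which makes a partner of the cap-binding protein Eif4e2, averaged 77.3 ± 6.33 CPM in Treatment and 61.3 ± 5.06 CPM in Model (0.33 ± 0.07, adjusted p = 0.0331). None of the 34 passed in Treatment against Control. The first call on Rps6kb2 was lost without Control 1, 2 or 3 or Model 2, 3 or 4 (adjusted p from 0.0505 to 0.0911), and the second without Model 2, Model 3 or Treatment 2 (0.0704 to 0.0884) or Treatment 2 and 3 together (0.0880). That on Gigyf1 was lost without Model 2, 3 or 4 or Treatment 2 or 4 (0.0576 to 0.124), or Treatment 2 and 3 together (0.0938).

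Of 16 genes of the exon junction complex and nonsense-mediated decay, which use Eif4a3, 1 rose in Model against Control and fell in Treatment against Model (6.25% in each, beside 0.790% and 1.88% of all genes). This was Upf2, a core decay factor, with 77.0 ± 3.88 CPM in Model and 61.4 ± 5.96 CPM in Control (0.33 ± 0.07, adjusted p = 0.0471, edgeR), and 62.1 ± 4.15 CPM in Treatment (-0.31 ± 0.07 against Model, adjusted p = 0.0402). The first call was lost in 7 of 12 fits without 1 library (without Control 1, 2 or 4 or any Model library; adjusted p from 0.0616 to 0.155), and the second in 8 (without Control 4, any Model library, or Treatment 2, 3 or 4; 0.0516 to 0.143). The second was also lost without Treatment 2 and 3 together (0.185). None of 17 recycling, reinitiation and scanning factors with other symbols and none of 15 elongation and termination factors passed in any comparison in edgeR. At an unadjusted p under 0.05 there were 1, 6 and 5 of the 17 (5.88%, 35.3% and 29.4%). Of the 15 there were 1, 2 and 3 (6.67%, 13.3% and 20.0%). These are for Model against Control, Treatment against Model and Treatment against Control, beside 15.6%, 18.5% and 13.9% of all genes. Among 32 genes of the heat shock response and the unfolded protein response 15 rose in Model against Control (46.9%, beside 0.790% of all genes), with a median of 0.37 over the list. In Treatment against Model 2 fell (6.25%, beside 1.88% of all genes), with a median of -0.17. In Treatment against Control none passed, beside 0.102% of all genes. There 30 of 32 were positive (93.8%, beside 47.9% of all genes), with a median of 0.22. An unadjusted p under 0.05 in edgeR was found for 16 of them (50.0%, beside 13.9% of all genes).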

How the data were processed

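The 12 libraries of hippocampal poly(A) RNA were grouped from the labels, 4 each in Treatment, Model and Control. The tools are, per the submitters' processing notes, Salmon 1.10.1, STAR 2.7.10a, FastQC 0.12.1, Trim Galore 0.6.7 and cutadapt 3.4, beside the builds mm39 and GRCm39. Their roles and the annotation release are not given in the sources used here. Values of 2 units were deposited for each gene in each library. Estimated counts were deposited without scaling, and 28.8% of their nonzero values were not whole within a tolerance of 1e-06. The authors also deposited FPKM, scaled by length and library total. Depth limits the precision of sparse genes such as Eif3j2.

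Estimated counts were rounded and fitted for all genes in R 4.3.3 with edgeR 4.0.16 (filterByExpr, which left 18600 genes, TMM, 1 quasi-likelihood fit to the 3 group means, 9 residual degrees of freedom, common biological coefficient of variation 10.7%). Benjamini-Hochberg adjustment ran over all genes of a comparison, with a threshold of 0.05. CPM use TMM-scaled library sizes; a prior count of 2 was added for the log2 CPM behind correlations and averages over factors. The code was tested on simulated data. Fold changes are given with their SE and CPM with the SD. Levels between genes are compared in FPKM only.

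The factors, their roles and the lists of related genes and markers were chosen with earlier results of these data known, so no test was made over a list. Named factors are those called, the 10 of smallest p in each comparison with a mean of at least 1 CPM, and a fixed set of central factors. Named related genes are those called. Alternatives were RLE scaling, DESeq2 1.42.0, limma-voom (limma 3.58.1), no filter, at least 1 CPM in 8 libraries, only the 8 libraries compared, a replicate block, leaving out each library or Treatment 2 and 3 together, and the FPKM with a pseudocount of 0.1 or 1, for genes that reached 0.5 FPKM in 4 libraries. Figures were drawn with matplotlib 3.10.9 in Python 3.11.15.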

Additional observations from a re-analysis of the deposited data

Results flagged for a closer look

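Of 102 groups of 4 libraries (34 named factors in 3 groups), 3 held a library that lay far from the others (Dixon's test of the gap to the nearest library at the 95% level); chance alone flags about 1 in 20 groups. Control 1 had 25.4 CPM of Eif2d, beside 27.0 to 27.3 in the other Control libraries, and it still lay above every Model library. Treatment 2 had 41.4 CPM of Eif2a, a factor that can bind initiator tRNA without eIF2, beside 44.0 to 44.3 in the other Treatment libraries. Model 4 had 47.4 CPM of Eif2s3y, the Y-linked eIF2 gamma gene, beside 39.3 to 40.6 in the other Model libraries.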

How the results depend on the processing

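The counts of called factors depended on the tool and on single libraries. In Model against Control (1 called) DESeq2 called 2, adding Eif4ebp2, and limma-voom, no filter, the replicate block and the FPKM with either pseudocount called 0; without 1 library the count was 0 to 1. In Treatment against Model (3 called) DESeq2 called 8, the 8 libraries alone 1 (Eif3e), the fit without Treatment 2 and 3 together 0 and the FPKM with either pseudocount 1 (Eif4e); without 1 library it was 0 to 4. In Treatment against Control (1 called) DESeq2 called 3, no filter and the replicate block 2 each (Eif3e and Eif3m), and limma-voom, the 8 libraries alone, the fit without Treatment 2 and 3 together and the FPKM with a pseudocount of 1 called 0; without 1 library it was 0 to 2. DESeq2 also called more of all genes: 692, 1099 and 440 in the 3 comparisons, beside 147, 350 and 19 in edgeR. The cause of these differences was not tested. Without Model 2 or without Model 3, edgeR called 0 genes of the whole table in Treatment against Model (2631 and 2812 at an unadjusted p under 0.05). The median of the factors in Model against Control was 0.07 without Model 2 and 0.04 to 0.07 over the fits without 1 library. Of 40 fold changes under 22 alternatives each, 757 values kept their direction and side of the threshold, 107 kept the direction and lost the call, 13 gained it and 3 changed sign: Eif3e in Model against Control to -0.01 without Control 2, and Eif4g2 in Model against Control to -0.01 with either FPKM pseudocount. Whether the replicate numbers pair the samples was not settled. Deviations of same-numbered libraries correlated at -0.04 to 0.11, and 4 of 12 libraries correlated best with their own number. Such low correlations over all genes cannot exclude a pairing that touches some genes. The replicate block called 228, 431 and 118 of all genes in the 3 comparisons, beside 147, 350 and 19 without it. With the block Eif2d in Model against Control had an adjusted p of 0.0568 and Eif3e in Treatment against Control 0.0317. With 4 libraries a group, changes as small as these sit near the threshold, and the sparse Eif3j2 and Eif4ebp1 allow no narrow estimate.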
